A study of Homo sapiens with 2 samples.

Results

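The genes described here are the 233 ZNF zinc finger genes with the brighter signals in H2228 cells, out of 466 measured ZNF genes and 19775 measured genes in all. They were chosen by symbol (ZNF, digits and at most 1 further letter) and by a mean log2 value of at least 6 over both arrays, not by their response to IL4. H2228 is a human lung adenocarcinoma line with variant 3 of the EML4-ALK fusion, and interleukin 4 (IL4) is a cytokine whose receptor signals through JAK kinases and STAT6. One array (Affymetrix U133 Plus 2.0) held RNA of untreated H2228 cells and the other RNA of H2228 cells given IL4, for which the series description states 100 ng/mL and 30 min. The treatment text attached to both samples speaks of transfections with EML4-ALK plasmids, siRNAs or negative controls for 48 h, which the other sources used here do not mention for the IL4 comparison. With 1 array per condition and 1 cell line there were no replicates, no test was possible, and every difference below is IL4 minus untreated on the log2 scale. The signals are bulk values, so a change in RNA per cell and a change in the share of cells making it cannot be told apart. Of the 233 genes, 230 are protein coding and 3 (ZNF252P, ZNF542P and ZNF818P) are transcribed pseudogenes.

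ZNF genes encode proteins with C2H2 zinc fingers, small folds that hold a zinc ion and that mostly read DNA, each finger contacting a few bases. Many also carry a KRAB domain, which binds the corepressor TRIM28 and through it the histone methyltransferase SETDB1, and such proteins are best known for silencing transposable elements. Others act as promoter-binding activators, RNA-binding proteins or subunits of chromatin complexes. The family grew by tandem duplication, so that a large part of it lies in clusters on chromosome 19.

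The line's own markers were bright in both arrays: EPCAM had 11.80 untreated and 11.62 with IL4, and the keratin KRT19 had 11.74 and 11.84. CDH1 (E-cadherin) had 10.18 and 10.92, a difference of 0.75. ALK had 8.24 and 8.41, and EML4 had 9.38 and 9.33. The leukocyte marker PTPRC had 2.5 and 2.37 and CD3E had 5.56 and 5.59. Of the endothelial markers CDH5 had 2.93 in both, VWF 4.57 and 4.86, and PECAM1 5.96 and 6.11. The erythroid gene HBB had 6.56 and 6.43. Of the fibroblast genes COL1A1 was bright (10.82 and 11.23), whereas DCN (5.12 and 4.85), LUM (2.89 and 3.03) and COL3A1 (3.67 and 4.45) were dim. The part of other cell types in the values below was not tested.

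Promoters are shown for 3 of the 15 genes with the largest decreases (ZNF184 and ZNF227 past 1.5-fold, ZNF180 within it) and 1 that was past 1.5-fold upward, to let the letters be read beside the values. Each is the 250 bases before a transcription start in the RefSeq table of GRCh38.p14, on the gene's own strand. Capitals mark TTC, 3 bases of any kind, GAA (the spacing of most STAT proteins), CCGGAA (an ETS-like core) and ACTACAA, on either strand. ACTACAA is part of the longer form of the ZNF143 site. TTC, 4 bases of any kind, GAA, the spacing that STAT6 prefers, was searched as well and is in none of the 4. ZNF184 lies at chr6:27473106-27473355 on the minus strand, ZNF227 at chr19:44212282-44212531 on the plus strand, ZNF180 at chr19:44500523-44500772 on the minus strand and ZNF275 at chrX:153333903-153334152 on the plus strand.
ZNF184: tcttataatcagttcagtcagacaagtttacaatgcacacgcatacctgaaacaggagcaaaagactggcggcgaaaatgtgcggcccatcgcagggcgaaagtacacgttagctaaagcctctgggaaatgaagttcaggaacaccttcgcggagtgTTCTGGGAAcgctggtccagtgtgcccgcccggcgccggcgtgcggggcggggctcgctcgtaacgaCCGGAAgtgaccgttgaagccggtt
ZNF227: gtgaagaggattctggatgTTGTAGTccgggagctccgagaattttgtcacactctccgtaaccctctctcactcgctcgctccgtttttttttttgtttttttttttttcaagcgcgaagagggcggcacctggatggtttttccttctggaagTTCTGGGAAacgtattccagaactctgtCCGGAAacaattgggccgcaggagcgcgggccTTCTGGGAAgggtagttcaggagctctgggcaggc
ZNF180: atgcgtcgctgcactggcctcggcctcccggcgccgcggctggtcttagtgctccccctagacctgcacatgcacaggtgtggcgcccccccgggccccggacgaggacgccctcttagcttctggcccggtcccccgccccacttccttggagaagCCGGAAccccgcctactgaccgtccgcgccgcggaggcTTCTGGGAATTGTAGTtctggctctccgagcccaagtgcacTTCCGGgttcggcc
ZNF275: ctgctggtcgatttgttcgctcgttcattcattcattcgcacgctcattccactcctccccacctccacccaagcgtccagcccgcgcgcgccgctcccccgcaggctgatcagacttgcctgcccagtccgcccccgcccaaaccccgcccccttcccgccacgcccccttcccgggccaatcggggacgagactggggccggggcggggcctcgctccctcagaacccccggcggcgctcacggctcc
In these 3 genes with lower values, the STAT-spaced element read TTCTGGGAA, which ZNF227 held 2 times. In ZNF180 it ran directly into the reverse complement of ACTACAA, letters that stand together in the longer form of the ZNF143 site. TTCTGGGAA thus has the STAT spacing and is also made of letters of that site. The ZNF275 window held none of the motifs.

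IL4-treated and untreated cells differed little in the expressed ZNF genes as a group. At a level of 1.5-fold, 3 genes were higher with IL4 (1.29%) and 9 were lower (3.86%). Of the 9631 other genes with a mean of at least 6, 5.24% were higher and 6.57% lower, and over all 19775 genes the shares were 3.21% and 4.39%. A loess correction turned the split of the other genes to 6.05% higher and 5.53% lower, and left the ZNF genes at 3 higher and 8 lower. Only ZNF184 differed by at least 2-fold, against 3.25% of the other genes at these levels and 2% of all genes. The differences ran from -1.22 to 0.94 in the ZNF genes and from -3.19 to 4.99 in the far larger group of other genes, as the plot of differences against level shows.

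The bulk of both groups was alike. The median difference was -0.036 for the ZNF genes (quartiles -0.20 and 0.14) and -0.050 for the other genes (quartiles -0.25 and 0.14). The ZNF genes were below 0 in 129 cases, above in 97 and equal in 7. Of the ZNF genes 65.7% lay within 1.2-fold of no difference, and of the other genes 61.6%.

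**Figure D1:**
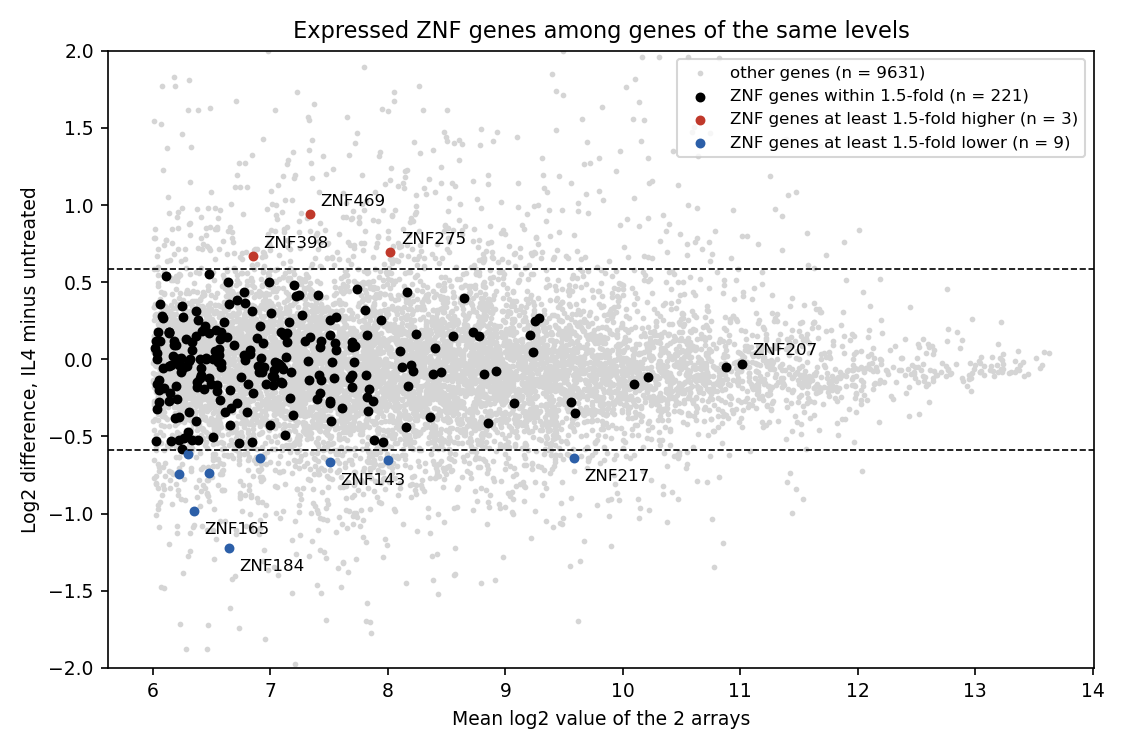
Log2 difference (IL4 minus untreated) against the mean log2 value of both arrays for the 233 ZNF genes (black, red and blue) and 9631 other genes (grey), with dashed lines at 1.5-fold. The 3 red and 9 blue points are the ZNF genes past 1.5-fold, and 24 other genes lie beyond the vertical axis.

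The shares were also set side by side within classes of mean level. Between 6 and 7, 0.758% of 132 ZNF genes were higher and 4.55% lower, against 4.47% and 7.09% of 2483 other genes. Between 7 and 8, 1 of 68 ZNF genes was higher and 1 lower, against 4.97% and 8.42% of 2374 other genes. Between 8 and 9 there was again 1 ZNF gene each way among 21, and 6.60% and 6.5% of 2030 other genes. Of the 12 ZNF genes at 9 and over, 0 were higher and 1, ZNF217, was lower, against 5.17% and 4.56% of 2744 other genes. The ZNF share was the smaller one in every comparison of these 4 classes except the share lower at 9 and over, which rests on that gene.

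**Figure D2:**
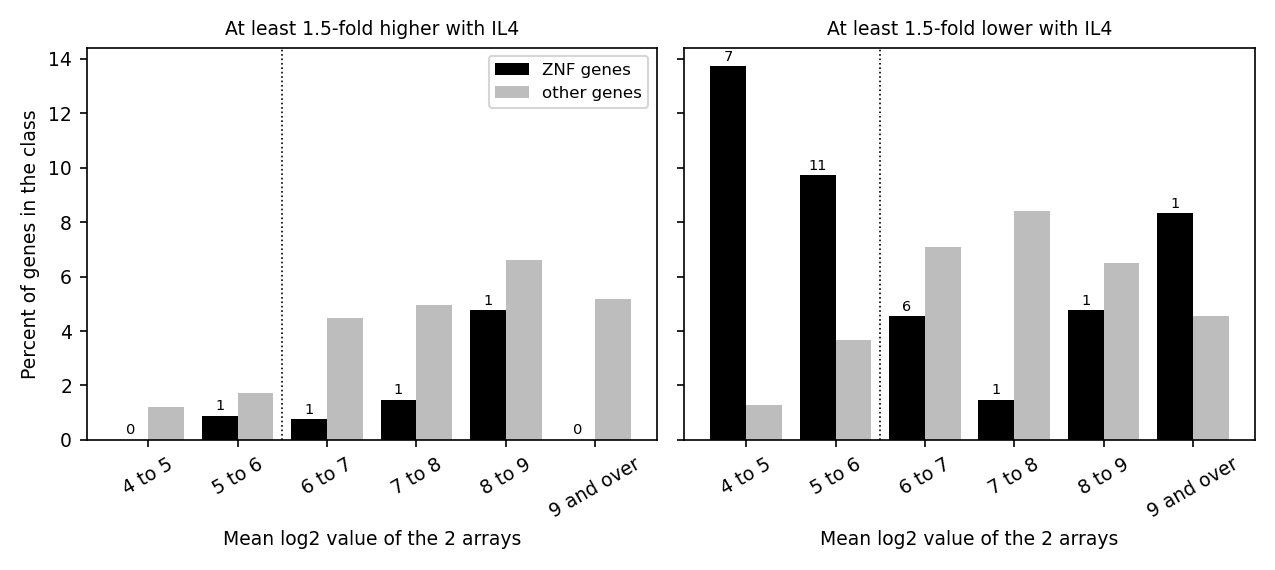
Percent of genes at least 1.5-fold higher (left) or lower (right) with IL4 in classes of mean log2 value, for ZNF genes (black, with the number of genes above each bar) and other genes (grey). The dotted line marks the level of 6; under it 7 and 11 ZNF genes were lower, and in the classes from 6 upward 6, 1, 1 and 1.

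The genes that were lower with IL4 came first by size. ZNF184, a KRAB zinc finger gene beside the large histone cluster of chromosome 6, had 7.26 untreated and 6.03 with IL4, 2.33-fold lower. ZNF165, a SCAN-domain gene best known from testis and tumours, lies in the same neighbourhood and had 6.84 and 5.85, 1.98-fold lower. Each of these is measured by 1 probe set, so the size rests on that set alone. ZNF883 followed with 6.60 and 5.85, a difference of -0.75, also on 1 probe set.

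ZNF618, which partners UHRF2 at modified cytosines, had 6.85 and 6.11, and its other 2 probe sets differed by -0.54 and -0.92. It was therefore lower in all 3 of its probe sets. ZNF143, an activator that binds many gene starts and small nuclear RNA promoters, had 7.84 and 7.18, a difference of -0.67. Its second probe set was dim, at 4.12 and 4.17.

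ZNF217, an amplified cancer gene on chromosome 20 whose product works with CoREST and LSD1, was the brightest of the genes past 1.5-fold, with 9.91 and 9.27. ZNF362 had 8.33 and 7.68, but its 2 dim probe sets went the other way, by 0.22 and 0.47. The KRAB gene ZNF227 had 7.23 and 6.59, with a second probe set at -0.47, and ZNF415 had 6.60 and 5.99. ZNF217 and ZNF415 are measured by 1 probe set each. All 9 of these decreases came from probe sets whose design does not mark them as shared between transcripts.

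A further 6 genes completed the 15 largest decreases and stayed within 1.5-fold. ZNF614 had 6.54 and 5.96 and lay just inside that line. ZNF322 had 7.0 and 6.46, ZNF180 had 7.11 and 6.57, and ZNF507 had 8.22 and 7.69. The second probe sets of ZNF614, ZNF322, ZNF180 and ZNF507 differed by 0.010, -0.17, -0.12 and -0.46. Only that of ZNF322 had a mean of at least 6. ZNF43 (6.29 and 5.76) and ZNF850 (6.42 and 5.89), both KRAB genes of chromosome 19, differed by -0.53 each.

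The largest increase was that of ZNF469, the gene of brittle cornea syndrome, which is tied to collagen and extracellular matrix. It had 6.87 untreated and 7.80 with IL4, 1.92-fold higher, on 1 probe set. ZNF275, an X-linked gene, had 7.67 and 8.37, and its second probe set differed by 0.61. ZNF398, reported as a partner of nuclear receptor signalling, had 6.51 and 7.18, with 0.54 and 0.23 in its other probe sets. These 3 were the only ones past 1.5-fold upward, and the 2 with further probe sets were higher in each of them.

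Among the 12 increases that followed, ZNF91 (6.20 and 6.75) and ZNF274 (7.95 and 8.38) are treated with the transposon group below. ZNF35 had 5.84 and 6.39, ZNF629 had 6.74 and 7.24, and ZNF317 had 6.96 and 7.44. ZNF827, which brings the NuRD complex to telomeres, had 7.51 and 7.96 and was higher in all 5 of its probe sets. ZNF562 had 7.01 and 7.42, and ZNF746 (PARIS), a repressor degraded through parkin, had 7.19 and 7.61. The dim second probe sets of ZNF317, ZNF562 and ZNF746 differed by 0.52, -0.13 and 0.052. ZNF451, a SUMO ligase, was divided: its brightest probe set had 8.44 and 8.84, whereas the next had 7.94 and 7.44. No single direction can be given for that gene.

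**Figure D3:**
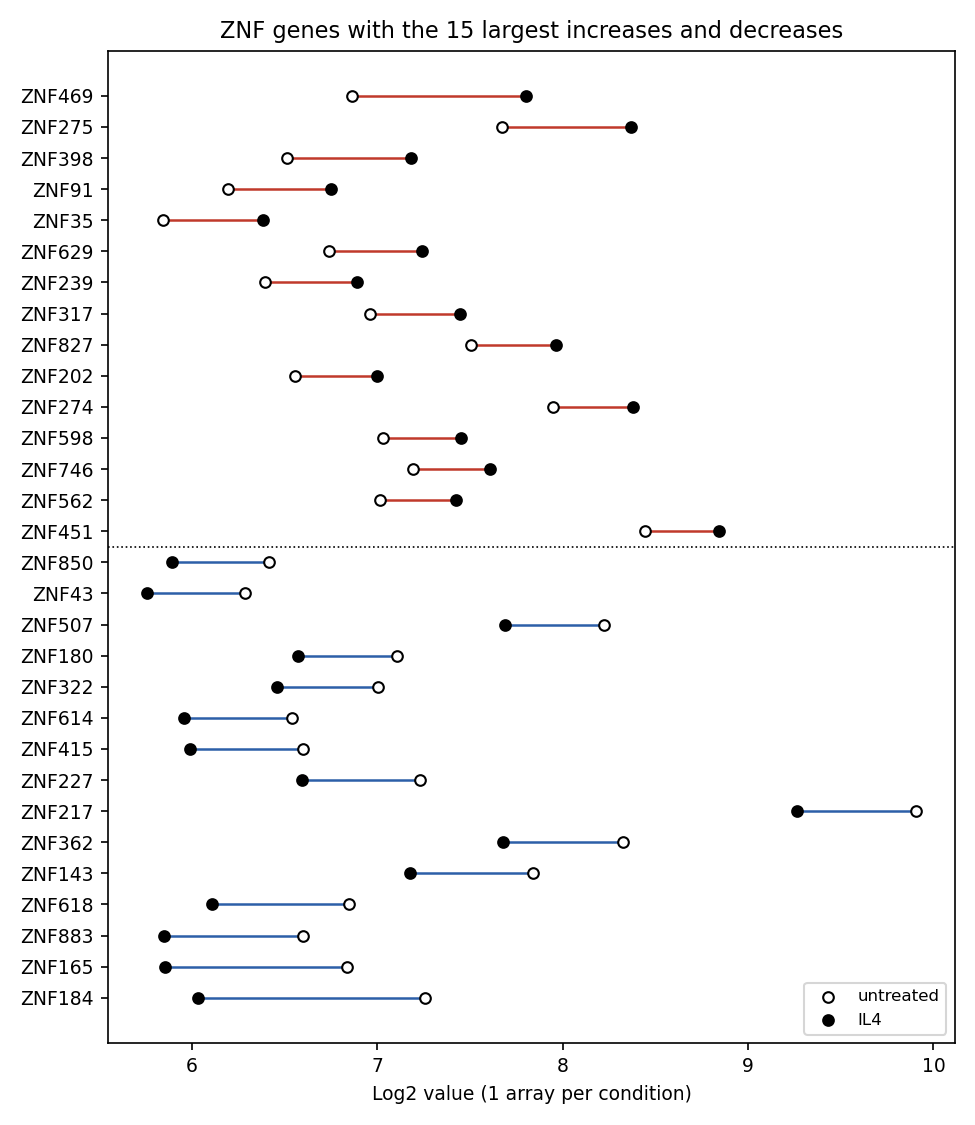
Log2 values of single arrays, untreated as open and IL4 as filled circles, for the ZNF genes with the 15 largest increases (red lines) and the 15 largest decreases (blue lines). ZNF184 has the longest line, from 7.26 to 6.03, and ZNF217 stands apart at the bright end.

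Of the 5 brightest ZNF genes, 4 lay within 1.2-fold of no difference. ZNF207 (BuGZ), a spindle protein that binds BUB3, had 11.03 untreated and differed by -0.029, and ZNF706 had 10.91 and 10.86. ZNF664 had 10.27 and 10.15, ZNF639 had 10.18 and 10.02, while ZNF395 had 9.77 and 9.42, 1.27-fold lower. ZNF217, past 1.5-fold, was the next in brightness. Brightness depends on the probe set, so these values are not an order of transcript amounts between genes.

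Sorted by role, no group of ZNF genes had a median near 1.5-fold. The counts below can be read against the 1.29% higher and 3.86% lower among all expressed ZNF genes and the 5.24% and 6.57% among other genes, bearing in mind that 1 gene is a large share of a short list. Of 14 genes linked to transposon silencing, 7 reached a mean of 6, and 0 were past 1.5-fold in either direction; their median was 0.10. The largest differences were those of ZNF91, which represses SVA elements, at 0.55 and ZNF274, which binds the ends of other zinc finger genes, at 0.43. ZNF93, a repressor of LINE elements, differed by -0.40 and ZNF85 by -0.32. The ZNF91 value stood on its brightest probe set, and the next one, at 5.76 and 5.61, differed by -0.15.

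Of 13 ZNF genes that act on ribosomes or RNA, 12 reached a mean of 6 and 0 were past 1.5-fold, with a median of -0.022. The largest differences were 0.50 in ZNF239, an RNA-binding protein (6.39 and 6.89), and 0.42 in ZNF598, the ubiquitin ligase that detects collided ribosomes (7.03 and 7.45). Of 11 measured promoter-binding activators and GC-box factors, 1 was lower, ZNF143, and the median was -0.019. ZNF202, a repressor of lipid genes, had 6.56 and 7.0 within that group. Of 14 partners of chromatin complexes, 2 were lower, ZNF618 and ZNF217, and the median was -0.093. Of 12 genes tied to cancer, signalling or development, ZNF469 was higher and ZNF165 lower, and the median was -0.13.

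The corepressor genes that KRAB proteins depend on were measured in 33 of 36 cases, 32 of them at a mean of at least 6. TRIM28 itself had 8.41 and 8.40, and SETDB1 had 7.06 and 6.96. Of the 32, 24 were below 0, 0 were higher and 1 was lower at 1.5-fold, with a median of -0.12. Of the other genes at this level 56.3% were below 0, 5.24% higher and 6.57% lower. The lower gene was MPHOSPH8, the histone-reading subunit of the HUSH silencing complex, with 7.03 and 6.43. The zinc finger genes named ZBTB, ZSCAN, ZKSCAN and ZFP, taken by symbol and not all of the C2H2 type, numbered 51 at this level. Of them 1 was higher and 3 lower, with a median of -0.0088. These are 1.96% and 5.88%, beside 5.24% and 6.57% of other genes. The lower ones were ZSCAN31 (7.29 and 6.53), ZBTB44 (9.03 and 8.31) and ZFP64 (8.23 and 7.55).

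At a mean of at least 6, the ZNF genes of chromosome 19 had a lower median than those elsewhere. The 95 on chromosome 19 had a median of -0.10, with 61 below 0 and 31 above, while the 504 other genes of that chromosome had a median of -0.0023, with 254 below 0. The 138 ZNF genes elsewhere had a median of 0. Among ZNF genes with a mean of at least 8 the order turned, with -0.011 on chromosome 19 and -0.050 elsewhere. Single chromosomes other than 19 were not in the planned comparison. On chromosome 7, 17 ZNF genes had a median of 0.17, where 435 other genes had -0.047. On chromosome 16, 19 ZNF genes had a median of 0.10 and 453 other genes -0.018. On chromosome 6, 7 ZNF genes had a median of -0.28 and 505 other genes -0.091. Past 1.5-fold were 0 ZNF genes of chromosome 19 upward and 2, ZNF227 and ZNF415, downward (2.11%), against 4.96% and 0.992% of the other genes of that chromosome. Neighbours can share probe sequence as well as position, and 42 of the 233 genes are read by probe sets that allow several transcripts, 30 by sets that allow cross-hybridization and 1 by a further shared design. The medians in these 3 classes were -0.064, -0.095 and 0.40, against -0.0033 for the 160 genes with a unique probe set. With unique probe sets alone, the chromosome 19 median was -0.086 and the median elsewhere 0.

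Runs of neighbours were taken as ZNF genes with at most 5 other protein-coding genes between them and at least 4 genes at a mean of 6, which gave 13 runs with 105 genes, 7 of them on chromosome 19. The run from ZNF283 to ZNF180 had the lowest median, -0.49, with 5 of 5 genes below 0. ZNF45 had 7.36 and 6.88, ZNF226 had 7.21 and 6.79, and ZNF112 had 6.63 and 6.47 beside ZNF227 and ZNF180. Of 14 dimmer genes of the same run 12 were also below 0. Among all ZNF genes with a mean under 6, 57.1% were below 0, and among other genes under 6, 39.5%. ZNF224 (6.34 and 5.35) and ZNF404 (5.74 and 4.80) were the 2 of the 14 past 1.5-fold. Within that run 3 of the 5 values came from probe sets that allow several transcripts, and without such sets the median was -0.32 over 4 genes. In that median ZNF226 (3.22 and 3.07) and ZNF180 (4.59 and 4.47) were read by dimmer sets, under the level of 6. ZNF45 and ZNF227 kept their values.

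In the run from ZNF653 to ZNF791 all 7 genes were below 0, between -0.38 (ZNF564) and -0.10 (ZNF627), with a median of -0.26. The run from ZNF565 to ZNF573 had a median of -0.31, with 7 of 10 genes below 0 and ZNF850 the lowest. The long run from ZNF264 to ZNF446 near the end of the same chromosome went the other way, with 13 of 22 genes above 0 and a median of 0.097. Values within 1 run could also part: in the run from ZNF101 to ZNF254, ZNF43 differed by -0.53 and ZNF91 by 0.55. ZNF43 has 1 probe set, which allows cross-hybridization. The ZNF91 value is that of its brightest set, whereas the next set differed by -0.15 and the mean over its sets by 0.029.

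The run from ZNF786 to ZNF775 on chromosome 7 had the highest median, 0.30. ZNF786 had 5.93 and 6.21, ZNF398 6.51 and 7.18, ZNF282 5.95 and 6.22, ZNF212 7.27 and 7.41, and ZNF783 6.21 and 6.52. ZNF777 (6.52 and 6.91) and ZNF746 were higher as well, and ZNF467 (6.27 and 6.0) was the 1 of 8 below 0. Of the 4 dimmer genes of this run 3 were below 0, with a median of -0.079 over the 4. Outside the runs, 6 genes of chromosome 9 had a median of -0.52, where 418 other genes had -0.055. Beside ZNF883 and ZNF618 these included ZNF510 (6.60 and 6.07) and ZNF367 (8.14 and 7.62), with ZNF189 at -0.018 and ZNF462 at 0.17, all 4 named here after their values were seen.

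**Figure D4:**
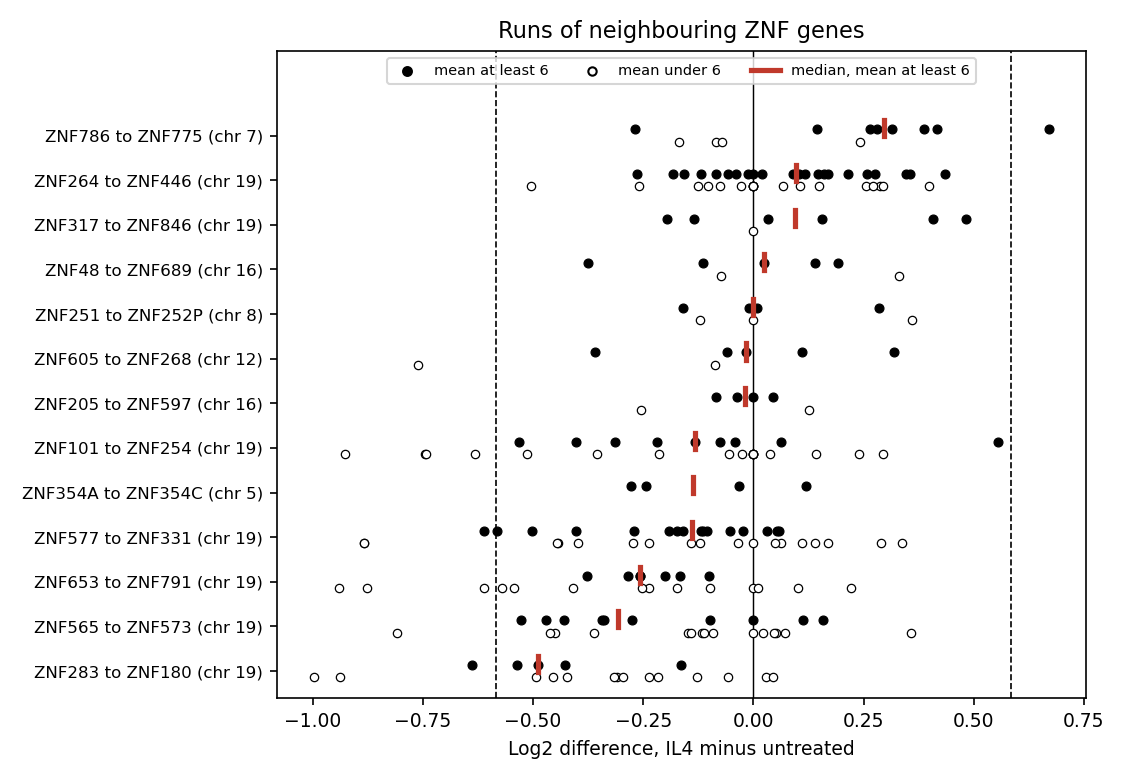
Log2 difference (IL4 minus untreated) of each measured ZNF gene in the 13 runs of neighbours, for genes with a mean of at least 6 (filled) and under 6 (open), with the median of the filled points as a red bar and dashed lines at 1.5-fold. Runs are ordered by that median, from -0.49 (ZNF283 to ZNF180) to 0.30 (ZNF786 to ZNF775).

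The level of 6 cut through a continuous range. Just inside it were ZNF358 (mean 6.02), ZNF43 (6.02) and ZNF418 (6.03), and just outside ZNF805 (5.99), ZNF836 (5.99) and ZNF865 (5.98). Below it, of 233 dimmer ZNF genes 1 was higher and 20 were lower (8.58%), against 1.3% and 2.13% of 9678 other dim genes. Between 5 and 6 the lower share was 9.73% of 113 ZNF genes and 3.65% of 3065 other genes. The lower ones included the pseudogenes ZNF204P (4.65 and 3.59) and ZNF788P (6.40 and 5.46), and the higher one was ZNF697 (5.17 and 6.31). The median of all probe sets was 5.00 untreated and 5.04 with IL4, so many of these values lay near or below the middle of the array.

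Second probe sets gave the one internal check of single genes that the arrays allow. Of 56 ZNF genes with a second probe set at 6 or over, 43 had the same sign in both (76.8%), against 80.6% of 4057 other genes. The standard deviation of the gap between both sets was 0.20 for each group. The median absolute difference of all 233 ZNF genes, 0.17, is another kind of measure and cannot be ranked against it. The standard deviation covers disagreement within the same RNA and not the variation between cultures.

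**Figure D5:**
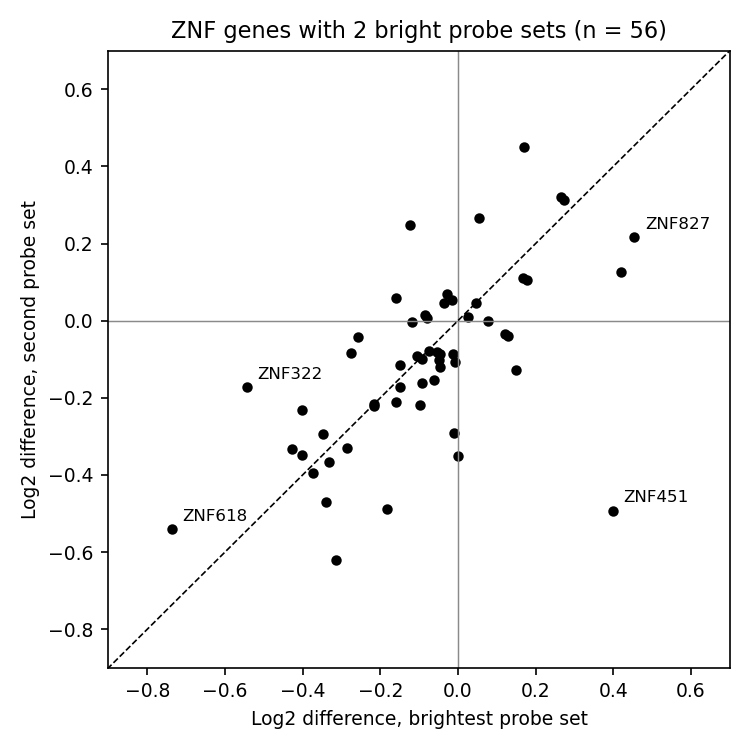
Log2 difference (IL4 minus untreated) of the second probe set against that of the brightest probe set for the 56 ZNF genes with both at a mean of at least 6; the dashed line marks equality. Of these, 43 share their sign, and ZNF451 lies far from the line at 0.40 and -0.49.

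The promoter letters were then counted in every ZNF gene with an entry in the RefSeq table, 196 of 233 genes with 261 start sites, beside 35116 start sites in all. TTC, 4 bases, GAA was in 5.75% of the ZNF windows, 4.06% of those of other genes at these levels and 5.38% of all. It was in 0 of the 10 windows of ZNF genes past 1.5-fold. Of the 15 ZNF genes with it, 13 were below 0 with a median of -0.082. Of the 181 without it, 99 were below 0 with a median of -0.032.

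TTC, 3 bases, GAA was in 9.96% of the ZNF windows, against 5.32% and 6.57%. In 14 of these 26 windows it was TTCTGGGAA, a word in 5.36% of ZNF windows, 0.725% of those of other genes and 0.908% of all. CCGGAA was in 34.9%, 23.5% and 14.5%, and ACTACAA in 7.66%, 2.94% and 2.47%. TTCTGGGAA and ACTACAA stood in the same window in 4 ZNF cases and in 20 of all windows. The 13 ZNF genes with TTCTGGGAA had a median difference of -0.036 and the 183 without it -0.042. A match describes letters and not a bound site. The promoters of ZNF165, ZNF469, ZNF618, ZNF746 and ZNF827 were not used here.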

How the data were processed

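Gene expression was measured in H2228 cells, untreated and with IL4, on 1 Affymetrix U133 Plus 2.0 array each. The authors deposited log2 values, 1 for each of 54675 probe sets. RMA is named in the submitters' processing notes with no version, and the methods name GCOS 1.4, a 2-fold filter and a P cutoff. A genome build for these values is not given in the sources used here. RMA equalizes the distributions of arrays, so a shift shared by most genes would not be seen. Array background correction could not be repeated.

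Probe sets with 1 gene in the array annotation (41097, of which 41043 were updated to RefSeq symbols of GRCh38.p14) were used, and 1801 with several genes, 61 of them including a ZNF symbol, and 11777 unnamed ones were not. The probe set with the highest mean stood for its gene. Gene order, biotype and promoters came from RefSeq. The members and lists were chosen with earlier results of these data known. Named are the 15 largest increases and decreases, genes past 2-fold, list members past 1.5-fold (or the 2 largest), the 5 brightest, 3 on each side of the level of 6, and corepressors by the list rule. TTCTGGGAA, the dimmer ZNF genes and other run distances were added after the values were seen. The counting was tested on simulated data. Grouping by KRAB domain or finger number was not made, since no protein sequences were used here. Depth does not apply, and the number of arrays limits the precision. Alternatives were other fold levels, floors, probe set choices and scalings. Calculations used Python 3.11.15, numpy 2.4.6, pandas 2.3.3, statsmodels 0.14.6 (loess, fraction 0.3) and matplotlib 3.10.9.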

Additional observations from a re-analysis of the deposited data

How the results depend on the processing

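The median difference of the expressed ZNF genes ranged from -0.094 to -0.0041 over the alternatives, and that of the other genes from -0.068 to 4.97e-06. The median of the chromosome 19 genes ranged from -0.22, with second probe sets, to -0.011, at a mean of at least 8, and the median elsewhere from -0.086 to 0.018; only at a mean of at least 8 was the median elsewhere (-0.050) the lower one. The 3 ZNF genes higher at 1.5-fold became 0 at 2-fold, 1 at a mean of at least 8 and 0 with second probe sets. The 9 lower became 1 at 2-fold, 3 at a mean of at least 7, 2 at a mean of at least 8, 29 with no floor and 1 with second probe sets. The share past 1.5-fold either way, 5.15%, became 0.429% at 2-fold, 9.09% at a mean of at least 8 and 1.79% with second probe sets. For the other genes 11.8% became 3.25% at 2-fold and 7.61% with no floor, where the ZNF share was 7.08%, with 6.22% of ZNF genes lower against 4.35% of other genes. Fewer genes were counted under the higher floors and with second probe sets, and the cause was otherwise not tested. Of the 12 genes past 1.5-fold, 12 stayed past it after centring and after quantile normalization and 11 after loess, which lost ZNF217 (-0.57). With the mean over probe sets 8 stayed, and ZNF362 turned to 0.0099. Of the 30 named genes, 0 changed sign under the 3 scalings. With at most 10 genes between neighbours, the run that ends at ZNF180 began at ZNF575, with 7 of 7 genes below 0 and a median of -0.43. No paired analysis was possible because there was 1 array per condition, and for the same reason no replicate could be left out. The KRAB and finger alternatives were not run.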
